A study of Mus musculus with 4 samples.

Results

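Immunoglobulin kappa variable segments (Igkv) were followed in kidneys of Usp2 knock-out mice and of wild-type littermates. Members were the rows of the deposited array table whose annotation gives exactly 1 gene symbol that begins with Igkv. This gave 9 rows of 8 genes, out of 28270 rows in all, of which 21780 carry 1 symbol and stand for 19934 genes. A row is 1 set of probes on the array, summarised to 1 value per sample. Igkv19-93 has 2 rows and Igkv10-96, Igkv9-120, Igkv4-91, Igkv4-55, Igkv5-43, Igkv8-30 and Igkv6-20 have 1 each. The group was chosen with the genotype differences of these arrays known, in which Igkv10-96 and Igkv19-93 stood out. The difference between genotypes is therefore given for Igkv rows as a description. No p-value is given for them, and how many of them a fit over all rows called is a count from which nothing is read.

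The groups were wild-type (WT) and Usp2 knock-out (Usp2-KO) mice, and both were C57BL6/N males of 12 weeks. Both were dissected at Zeitgeber time 12, the time of day at which, per the labels, Usp2 expression peaks. RNA of 3 mice was mixed for each array, so that 6 pairs of littermates filled 2 pools of each genotype (4 arrays). Littermates went into matching pools per the series' design text, and pools of the same number were taken to match here. A pool averages its mice, so the spread between pools is not that between animals. How the Usp2 allele was made is not given in the sources used here.

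An antibody light chain of the kappa type is built from a variable (V) segment, a short joining segment and a constant part. A developing B cell joins 1 of many V segments to a joining segment by DNA recombination, and a B cell and its descendants as a rule keep that choice. Plasma cells, the antibody-secreting descendants of B cells, carry very large amounts of immunoglobulin transcript. V segments of 1 family resemble each other, and probes for 1 can bind transcripts of another.

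Usp2, the gene removed, was 11.67 ± 0.06 (SD, n = 2 pools) in WT and 7.63 ± 0.04 in Usp2-KO kidney on the log2 scale. It was lower by 16.5-fold (limma adjusted p = 4.7e-06), as the labels state. Values of the table ran from 2.37 to 14.58, array medians from 7.44 to 7.46, and arrays correlated between 0.997 and 0.998 across rows, which are not independent replicates. Transcripts of the proximal tubule, the main cell type of kidney by mass, were at 11.87 to 14.06 in every pool (Slc34a1, Slc5a2, Lrp2, Cubn and Slc22a6). The table holds no detection calls, so a low value cannot be split into transcript and background. In RNA of a whole organ, fewer cells of a type and less RNA per cell cannot be told apart.

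In the GRCm38.p6 gene table of RefSeq the kappa locus lies on chromosome 6 and Usp2 on chromosome 9. The table lists 162 Igkv genes there, 102 as V segments and 60 as pseudogenes, and all 8 members are listed as V segments. The array table names no genome build, so positions are given as places in this order. Igkv9-120 has place 20, Igkv10-96 place 48, Igkv19-93 place 54 and Igkv4-91 place 56. Igkv4-55 has place 105, Igkv5-43 place 117, Igkv8-30 place 131 and Igkv6-20 place 142. Igkv10-96 and Igkv19-93 are thus near neighbours, with 5 other Igkv genes between them. They carry the family numbers 10 and 19, which no other member shares, while Igkv4-91 and Igkv4-55 share family 4.

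Igkv10-96 (NCBI gene 692165, probe set 10545173) was at 8.04 and 7.44 in the WT pools and at 9.19 and 8.52 in the Usp2-KO pools. Both Usp2-KO pools lay above both WT pools. The means were 7.74 ± 0.42 and 8.85 ± 0.47 (SD, n = 2 pools each), a difference of 1.11 (SE 0.45), or 2.16-fold higher in Usp2-KO kidney. The difference was 1.15 between the pool 1 littermates and 1.08 between the pool 2 littermates. Pool 1 stood above pool 2 in both genotypes, by 0.59 in WT and by 0.66 in Usp2-KO, so the littermate comparisons were closer to each other than the pools of a genotype were. By size of rise it was the second highest of all rows (rank 2 of 28270). It lay between 0.78 and 1.44 when any 1 pool was left out.

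Igkv19-93 (NCBI gene 692161) is read by 2 rows, and they did not agree. Its first row (probe set 10545177) was at 8.23 and 8.54 in the WT pools and at 7.13 and 7.41 in the Usp2-KO pools, so that both Usp2-KO pools lay below both WT pools. The means were 8.38 ± 0.22 and 7.27 ± 0.19 (SD, n = 2 pools each), a difference of -1.12 (SE 0.21), 2.17-fold in size and lower in Usp2-KO kidney. The littermates differed by -1.09 in pool 1 and by -1.14 in pool 2. It had rank 6 from the lowest of 28270 rows, and it lay between -1.27 and -0.96 when any 1 pool was left out.

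The second row of Igkv19-93 (probe set 10545182) was at 7.39 and 7.02 in the WT pools and at 7.21 and 7.12 in the Usp2-KO pools. Both Usp2-KO values fell between the WT values. The means were 7.21 ± 0.26 and 7.17 ± 0.07 (SD, n = 2 pools each) and the difference was -0.04 (SE 0.19), with -0.17 and 0.10 in the littermates of pool 1 and pool 2. The annotation lists 1 transcript record for the first row and 3 for the second, of which 1 is shared. The mean of both rows differed by -0.58 between genotypes. The probe sets assigned to this segment thus gave different values for the same RNA.

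Igkv9-120 varied the most within a genotype. It was at 9.72 and 8.14 in the WT pools and at 9.51 and 8.74 in the Usp2-KO pools. Pool 1 was the higher pool in both genotypes and the genotypes overlapped. The means were 8.93 ± 1.11 and 9.13 ± 0.55 (SD, n = 2 pools each), with a difference of 0.19 (SE 0.88). This difference was smaller than its error, and it was 0.98 without WT pool 1 and -0.59 without WT pool 2.

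**Figure D1:**
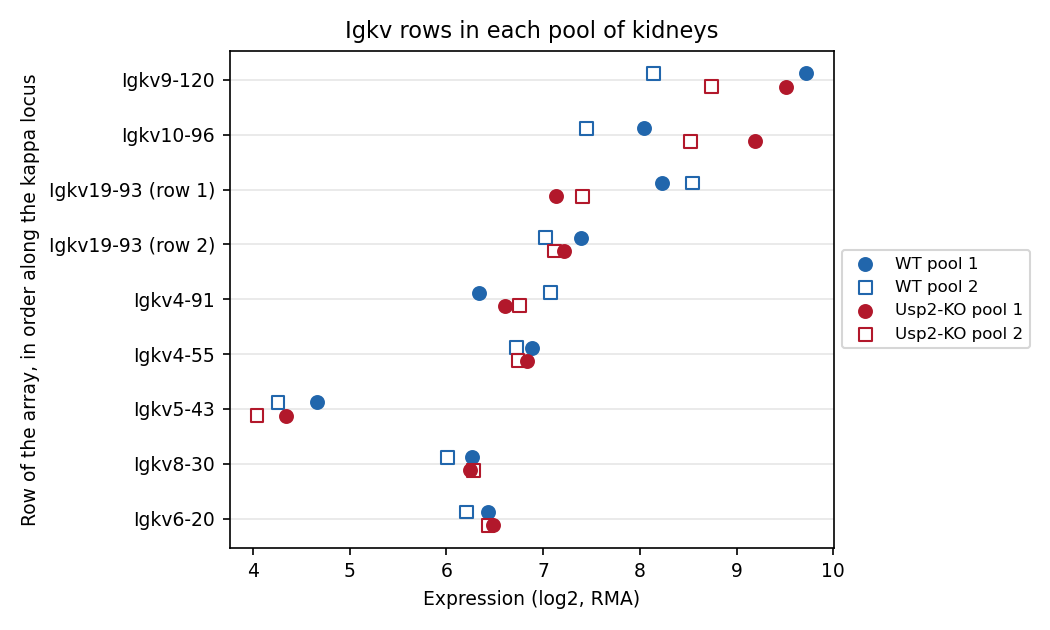
Expression of the 9 Igkv rows in each pool (horizontal axis, log2 RMA value), with rows in the order of the genes along the kappa locus; filled circles are pool 1, open squares pool 2, blue WT and red Usp2-KO. The red points of Igkv10-96 lie to the right of the blue ones and those of the first row of Igkv19-93 to the left, while in the other 7 rows the genotypes overlap and Igkv9-120 is spread from 8.14 to 9.72.

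The remaining 5 rows each differed by 0.27 or less in size. Igkv4-91 was at 6.34 and 7.08 in the WT pools and at 6.61 and 6.76 in the Usp2-KO pools, so that the WT values enclosed the others. Its littermate differences had opposite signs, 0.27 in pool 1 and -0.32 in pool 2. Igkv4-55, of the same family, was at 6.89 and 6.73 in WT and at 6.84 and 6.74 in Usp2-KO kidney, a difference of -0.02 (SE 0.09). The lowest values belonged to Igkv5-43, with 4.66 and 4.26 in WT and 4.34 and 4.04 in Usp2-KO kidney. Igkv5-43 was lower in the Usp2-KO pool of both littermate pairs, by -0.32 and -0.22, but the genotypes overlapped (difference -0.27, SE 0.25). Igkv6-20 was at 6.43 and 6.21 in WT and at 6.48 and 6.43 in Usp2-KO kidney (difference 0.13, SE 0.11). Igkv8-30 was at 6.27 and 6.01 in WT and at 6.24 and 6.28 in Usp2-KO kidney (difference 0.12, SE 0.13). WT pool 2 was the lowest pool for both, and without it their differences were 0.02 and -0.01.

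Over the 9 rows the genotype difference was positive in 4 and negative in 5, with a median of -0.02, against a median of -0.01 over all rows. The sign was the same in both littermate comparisons for 4 of 9 rows, against 51.7% of all rows. The pools of the genotypes did not overlap for 1 row in the direction of higher and 1 in that of lower, where this holds for 38.8% of all rows (19.6% higher, 19.2% lower). At an adjusted p under 0.05, limma without a littermate term called 0 of the 9 Igkv rows and 0.00354% of all rows, which is Usp2 alone. With the littermate pools as a block it called 2 of the 9, Igkv10-96 and the first row of Igkv19-93, and 0.0354% of all rows (10 of 28270). Since the group was chosen on this contrast, these counts are a description. Leaving out WT pool 2 raised the number of rows called from 1 to 10 and leaving out Usp2-KO pool 1 raised it to 2, with 0 Igkv rows among them.

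**Figure D2:**
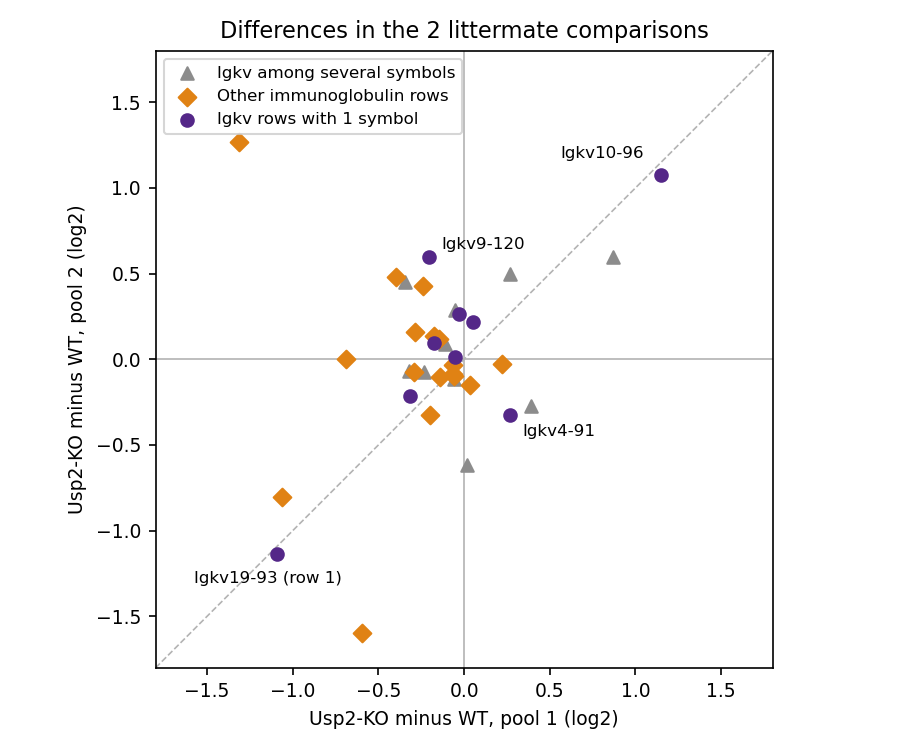
Difference between Usp2-KO and WT on the log2 scale in the pool 1 littermates (horizontal axis) and in the pool 2 littermates (vertical axis) for the 9 Igkv rows (circles), 10 rows that list Igkv among several symbols (triangles) and 17 other immunoglobulin rows (diamonds); the dashed line marks equal differences. Igkv10-96 (1.15 and 1.08) and the first row of Igkv19-93 (-1.09 and -1.14) lie near the dashed line at opposite ends, and Igkv9-120 and Igkv4-91 lie in the quadrants of opposite sign.

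Gaps between pools of the same genotype are a measure that the choice of the group did not use directly. A row that varies between pools can more easily show a large difference of 2 pool means. The gaps of Igkv10-96 and of the first row of Igkv19-93 are therefore not independent of the choice. The gaps were wide for Igkv rows, above all in WT kidney. Over the other 7 rows alone the median gap was 0.36 in WT and 0.10 in Usp2-KO. The gap between the WT pools was 0.36 in the median Igkv row, from 0.16 for Igkv4-55 to 1.57 for Igkv9-120, against a median of 0.08 over all rows. Wide WT gaps were not particular to these rows. Their median was 0.30 in the 10 rows that list Igkv among several symbols and 0.29 in 11 other immunoglobulin rows with 1 symbol. Set among the 200 rows nearest in mean level, the WT gap stood at percentile 100 for Igkv10-96, Igkv4-91 and Igkv9-120 and at 96.5 for the first row of Igkv19-93. The lowest percentiles were 73 for Igkv4-55 and 88 for Igkv6-20, and the median over the 9 rows was 98.5. Between the Usp2-KO pools the median gap was 0.15, against 0.09 over all rows, and the median percentile was 68.5. The Usp2-KO gap was at percentile 100 for Igkv10-96 (0.66) and Igkv9-120 (0.77), at 95.5 for the first row of Igkv19-93 (0.27) and at 19.5 for Igkv8-30 (0.04). Whether the WT and Usp2-KO gaps differ from each other was not tested, as each rests on 1 pair of pools.

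The direction of the gaps was counted as well. WT pool 1 lay above WT pool 2 in 7 of 9 Igkv rows, against 47.4% of all rows, and Usp2-KO pool 1 above Usp2-KO pool 2 in 6 of 9, against 49.8%. The first row of Igkv19-93 and Igkv4-91 ran the other way in both genotypes, and Igkv8-30 did so in Usp2-KO only. Rows of related segments share cells and may share probes, so they are not independent of each other.

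**Figure D3:**
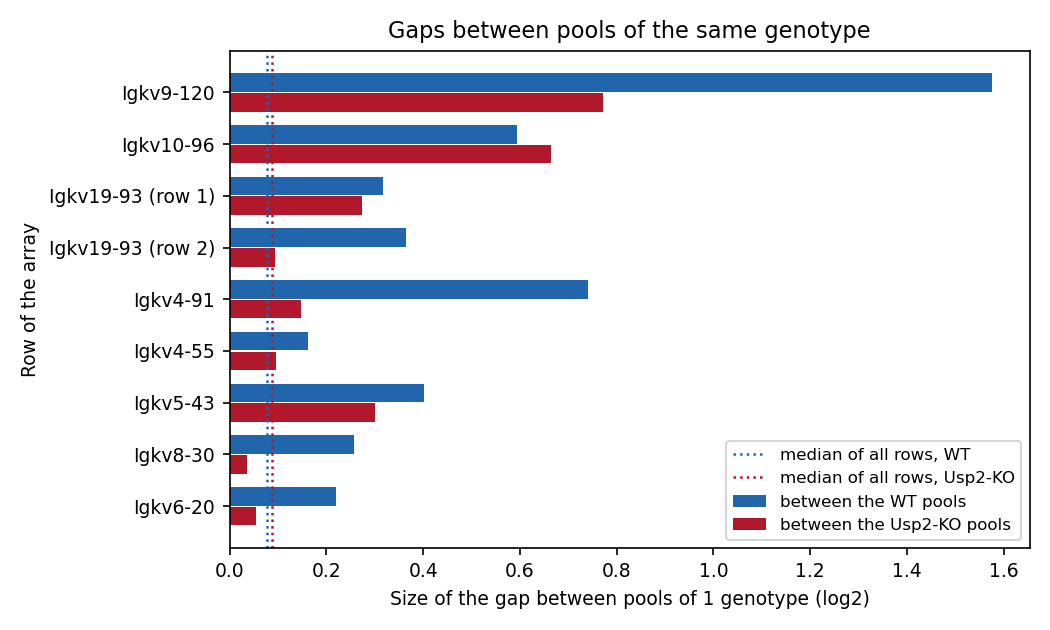
Size of the gap between the 2 WT pools (blue) and between the 2 Usp2-KO pools (red) for each Igkv row on the log2 scale, with the median gap of all rows as dotted lines (0.08 in WT, 0.09 in Usp2-KO). All 9 blue bars pass the dotted line, with the longest for Igkv9-120 (1.57), and the red bars of Igkv8-30 (0.04) and Igkv6-20 (0.05) fall short of it.

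A further 10 rows list an Igkv segment among several symbols and are assigned to no gene here. Their genotype differences ran from -0.30 to 0.73 with a median of 0.02, 5 higher and 5 lower. One of them lists Igkv10-96 beside a joining segment and shares 4 transcript records with the Igkv10-96 row. It was at 8.42 and 8.51 in WT and at 8.69 and 9.01 in Usp2-KO kidney. This was the 1 row of the 10 whose genotypes did not overlap, where 38.8% of all rows did not. Its difference of 0.38 had the same direction as that of the Igkv10-96 row but was smaller (1.11 there). The order of the pools was the reverse of that row, with pool 2 above pool 1 in each genotype. Another lists Igkv19-93 among 8 symbols and shares 1 record with its first row and 3 with its second. This row was at 9.04 and 8.75 in WT and at 8.80 and 8.68 in Usp2-KO kidney, so the genotypes overlapped (difference -0.16). A row that lists Igkv9-120 among 4 symbols was at 8.01 and 7.31 in WT and at 8.88 and 7.90 in Usp2-KO kidney. Its pool 1 values exceeded its pool 2 values in each genotype, as those of the Igkv9-120 row did. A second row with the same 4 symbols was at 10.06 and 9.92 in WT and at 10.45 and 9.65 in Usp2-KO kidney. WT pool 1 lay above WT pool 2 in 8 of the 10 rows.

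The other parts of the antibody genes were tested, since they had no part in the choice of the group. Of 11 rows of 8 genes with 1 symbol, 0 passed an adjusted p under 0.05 in limma and 1 had an unadjusted p under 0.05, a threshold that 8.59% of all rows met. They were lower in Usp2-KO kidney in 9 and higher in 2, with a median of -0.06, which was 0.01 without WT pool 1. That 1 row was the third of 3 rows of Ighm, the constant part of the IgM heavy chain. It was at 7.17 and 7.56 in the WT pools and at 6.57 and 5.97 in the Usp2-KO pools, which did not overlap. The difference was -1.10 (SE 0.20, limma adjusted p = 0.456). The first and second rows of Ighm differed by -0.18 and -0.05, so the rows of this gene disagreed as those of Igkv19-93 did.

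Igha, the constant part of IgA, was at 9.61 and 8.75 in the WT pools and at 9.37 and 9.18 in the Usp2-KO pools in its first row (difference 0.09, SE 0.24, limma adjusted p = 0.94). Its second row differed by 0.04. Ighg3, the constant part of an IgG, was at 6.35 and 5.15 in WT and at 5.03 and 6.42 in Usp2-KO kidney. Its littermate differences were -1.31 and 1.27, of opposite sign and nearly equal size, and left a mean difference of -0.02 (SE 0.50). Jchain, which links the units of IgM and IgA and is made by antibody-secreting cells, was at 8.06 and 7.76 in WT and at 7.91 and 7.88 in Usp2-KO kidney (difference -0.01, SE 0.10, limma adjusted p = 0.982). The parts of the surrogate light chain of precursor B cells, Igll1, Vpreb1, Vpreb2 and Vpreb3, differed by -0.07, -0.06, -0.08 and -0.12. Among 6 rows that list several immunoglobulin symbols without Igkv, WT pool 1 lay above WT pool 2 and Usp2-KO pool 1 above Usp2-KO pool 2 in 6 of 6, with median gaps of 0.50 and 0.44. One of these 6, which lists IgA and a heavy chain V segment, was at 6.27 and 5.58 in WT and at 5.21 and 4.77 in Usp2-KO kidney. It differed by -0.93 (SE 0.23, limma adjusted p = 0.456, and 0.0209 with the littermate block). In the 11 rows with 1 symbol, pool 1 lay above pool 2 in 8 for WT and in 6 for Usp2-KO.

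Markers of B cells and plasma cells lay closer together across the pools than the Igkv rows. Mean levels ran from 5.1 to 8.4 for B cell markers and from 6.4 to 11.9 for plasma cell markers. Whether these rows follow the number of such cells in whole kidney was not tested, so close values do not show steady cell numbers. Of 16 measured B cell markers, 11 were lower and 5 higher in Usp2-KO kidney with a median of -0.02, and 0 passed in limma. Fcmr, the IgM receptor, had the smallest p (-0.24, SE 0.07, limma adjusted p = 0.495), and its pools did not overlap. Ms4a1 (CD20) was at 5.17 and 5.04 in WT and at 5.10 and 5.26 in Usp2-KO kidney. The antigen receptor partners Cd79a and Cd79b differed by -0.05 and -0.04. The mean log2 value of the list was 6.49 and 6.46 in the WT pools and 6.46 and 6.42 in the Usp2-KO pools. The median gap between WT pools was 0.10 and that between Usp2-KO pools 0.07.

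The 17 measured plasma cell markers had a median difference of -0.03, with 11 lower, 6 higher and 0 called by limma. Slamf7, a surface receptor, differed by 0.18 and Mzb1, a chaperone of antibody-secreting cells, by 0.10. The regulators Prdm1 and Pou2af1 differed by 0.01 and -0.13, and the surface markers Sdc1 and Tnfrsf17 by -0.04 and -0.03. Xbp1, which kidney epithelium also expresses, differed by -0.04. WT pool 1 lay above WT pool 2 in 13 of these 17 rows, with a median gap of 0.08, and the mean of the list was 8.22 and 8.12 in the WT pools and 8.16 and 8.15 in the Usp2-KO pools. WT pool 1 was thus the highest pool for this list and for the mean of the Igkv rows. This was not particular to them, as it also held for the B cell list and the other immunoglobulin rows with 1 or with several symbols. Among the lists below it held for germinal centre, T cell, natural killer cell and neutrophil genes and for transcription factors of the kappa locus. It did not hold for precursor B cell or for macrophage and dendritic cell genes. Nor did it hold for lymph node stroma, adipocyte, or immunoglobulin transport and Fc receptor genes. Rows that list Igkv among several symbols were highest in Usp2-KO pool 1 (8.46, against 8.42 in WT pool 1). The part of plasma cell number in the Igkv values was not tested.

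Lists of other immune cells and of neighbouring tissue gave 0 calls as well. Over all lists 0 of 128 rows passed in limma and 14 had an unadjusted p under 0.05, or 10.9%, against 8.59% of all rows. Of these 14 rows 12 were lower in Usp2-KO kidney, as were 1032 of the 2428 such rows over the whole table. All 7 recombination and precursor B cell genes were lower in Usp2-KO kidney, with a median of -0.10, where 14874 of all 28270 rows were lower. Igll1, Vpreb1, Vpreb2 and Vpreb3 among them are the same rows as in the other immunoglobulin rows above, so the groups are not separate observations. Rag2, a subunit of the recombinase, differed by -0.31 (SE 0.09, limma adjusted p = 0.491) at a mean level of 4.42. Germinal centre genes had a median of 0.01 over 6 genes, which was -0.07 without Usp2-KO pool 1 and -0.085 among rows of a mean log2 value of at least 6. Among them Bcl6, a repressor that many tissues express, differed by -0.90, by -0.40 without Usp2-KO pool 1 and by -1.41 without Usp2-KO pool 2. T cell markers were lower in 6 of 11 (median -0.06), with Cd3e of the T cell receptor at -0.23. Their median was -0.17 without Usp2-KO pool 1 and 0.03 among rows of a mean log2 value of at least 6. For the 9 markers of natural killer cells the median was -0.04, with Ncr1 at -0.24 (-0.12 without Usp2-KO pool 2). For the 15 of macrophages and dendritic cells it was -0.01, with the dendritic cell receptor Xcr1 at -0.21, and for the 9 of neutrophils -0.12, with the receptor Cxcr2 at -0.33.

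Lymph node stroma genes, among them the chemokines Cxcl13 and Ccl19, had a median of 0.02 over 10 rows, which ran from -0.02 to 0.06 when 1 pool was left out, with gaps between pools of 0.10 in WT and 0.02 in Usp2-KO. These 10 rows stand for 6 genes, as Ccl19 has several rows, some with the same values. With only the highest row of each gene the median was 0.006. Adipocyte genes had a median of -0.27 over 8 genes, with 6 lower and 2 higher in Usp2-KO kidney. Retn was at -0.42 (-0.21 without Usp2-KO pool 1), and the 2 higher genes were Ucp1 at 0.21 and Fabp4 at 0.12. The mean of the list was 7.38 and 7.41 in the WT pools and 7.03 and 7.38 in the Usp2-KO pools. This mean was thus low in Usp2-KO pool 1 alone, and without that pool the median was -0.05. The part of adipocytes in the Igkv values was not tested. Transcription factors of the kappa locus had a median of -0.01 over 11 genes, with Rela at -0.11. Genes of immunoglobulin transport and Fc receptors had one of -0.0015 over 9 genes, with Fcamr, a receptor for IgA and IgM, at 0.25.

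**Figure D4:**
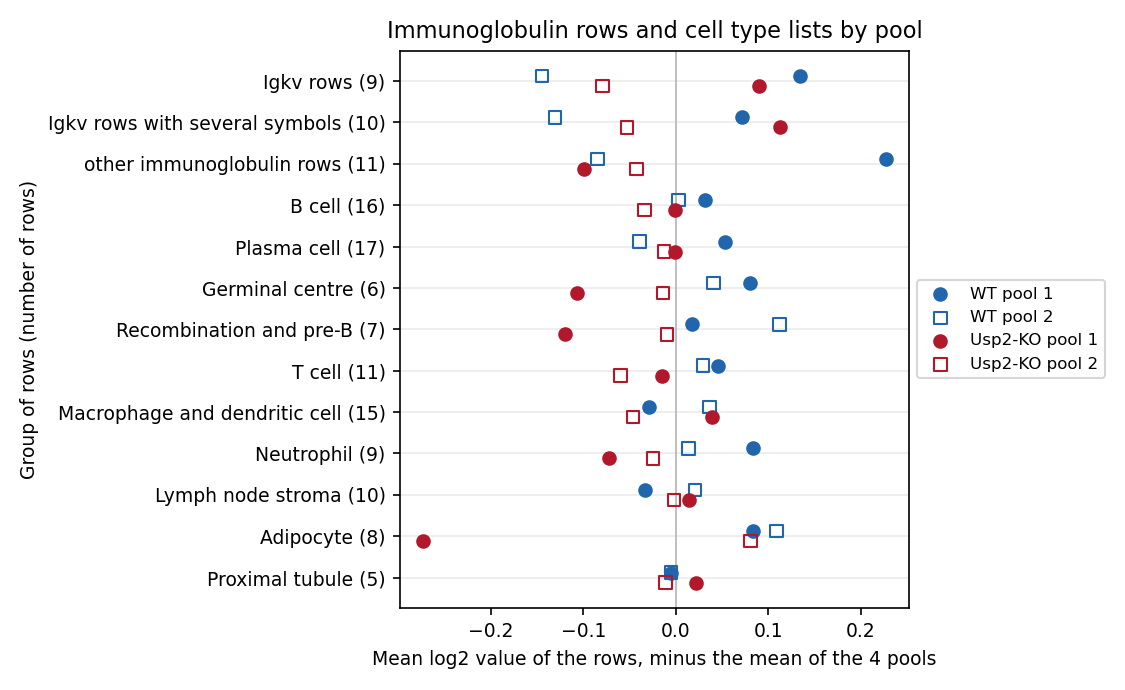
Mean log2 value of each group of rows in each pool, minus the mean of the 4 pools, for the Igkv rows, other immunoglobulin rows and cell type lists, with the number of rows in parentheses; filled circles are pool 1, open squares pool 2, blue WT and red Usp2-KO. In both groups of Igkv rows the filled circles lie to the right of the open squares in each genotype, and the adipocyte list has Usp2-KO pool 1 far to the left at -0.27.

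The genes whose pattern over the 4 arrays was most like that of Igkv10-96 were found by the root mean square distance of values centred on the row mean. They were Khdc1a (0.25), Zfp442 (0.33), Ppp4r2 (0.36), Rangrf (0.37) and Vmn1r45 (0.39), where Igkv10-96 itself had a root mean square deviation of 0.64. For the first row of Igkv19-93, with a deviation of 0.58, they were 6030498E09Rik (0.30), the third row of Ighm (0.31), Bcl6 (0.31), Vmn1r86 (0.33) and Cryab (0.34). The measure rests on 4 values per row, and these hold the genotype difference on which both target rows were chosen. Rows with a large difference of the same sign therefore tend to come near by construction, and nothing further is read from the likeness. No other Igkv row with 1 symbol was among the 5 nearest of either.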

How the data were processed

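Values are on the log2 scale as the authors deposited them, and the submitters' processing notes name RMA. This method subtracts background, makes the value distributions of the arrays equal and summarises the probes of each set, so a shift common to all transcripts is removed. Its software and version and any filter on rows are not given in the sources used here. From each pool 300 ng of RNA went onto a whole-transcript array, per the labels' protocols. Each array is 1 pool of 3 mice, and the number of arrays limits the precision.

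Symbols came from the platform's annotation. Of the rows, 1617 list several symbols and 4873 none, and these named no gene. All 8 Igkv genes matched the RefSeq table of GRCm38.p6 by gene identifier. Usp2-KO minus WT was fitted over all 28270 rows by limma (version 3.58.1, R 4.3.3) with genotype as the term, eBayes, and Benjamini-Hochberg over all rows at a threshold of 0.05, with no filter. For Igkv rows, SEs are those of the 2 pool means. For other genes they are limma's. An exact permutation test of 2 against 2 pools cannot give a p below 0.333. The series' design text pairs the pools by littermates, and the pool numbers were taken as this pairing, which is an assumption. Over rows the gaps between pools of the genotypes correlated at -0.109. Named were all Igkv rows, the other constant genes, J chain and surrogate light chain genes, the member of smallest p of each list and 9 fixed B and plasma cell markers. The nearest genes by distance were also named. Members and lists were chosen with earlier results of these data known. Alternatives were a littermate block, an intensity trend, a robust prior, a filter at a mean log2 value of 6, the highest row or the mean of the rows of a symbol, repeated quantile normalization, centring on medians, a threshold of 0.10 and leaving out each pool. Figures were drawn with matplotlib 3.10.9.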

Additional observations from a re-analysis of the deposited data

How the results depend on the processing

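The number of rows that passed, 1 in the limma comparison, was 10 with the replicate block (littermate pairing), 7 with an intensity trend, 3 among rows of a mean log2 value of at least 6, 2 at an adjusted p under 0.10 and 1 to 10 when 1 pool was left out. Igkv10-96 and the first row of Igkv19-93 were among the 10 of 28270 rows with the block, and the latter was among the 7 of 28270 with the trend. Both rows were chosen on this contrast, so nothing is read from these calls. Crossing the littermate pairs, added after the data were seen, gave 1 row and 0 Igkv rows. No call of another immunoglobulin row with 1 symbol or of a list member changed under any of these, the block included. The median difference of the Igkv rows ranged from -0.10 to 0.14 over the left-out pools, with the highest without WT pool 1 and the lowest without WT pool 2, and it stayed at -0.02 without the highest rows of Igkv10-96 and Igkv19-93. With quantile normalization repeated, Ighg3 was at 0.0096 and Tnfrsf17 at 0.0031, both with the sign turned. With 1 pool left out, small differences changed sign, and their ranges were -0.33 to 0.52 and -0.39 to 0.47 for the Igha rows, -0.72 to 0.67 for Ighg3, -0.44 to 0.0745 and -0.11 to 0.0135 for the first and second rows of Ighm, -0.16 to 0.13 for Jchain, -0.21 to 0.088 for Vpreb1, -0.006 to 0.10 for Ccl19, -0.29 to 0.03 for Pou2af1, -0.11 to 0.03 for Xbp1, -0.15 to 0.10 for Tnfrsf17, -0.14 to 0.0345 for Cd79a, -0.12 to 0.047 for Sdc1, -0.022 to 0.036 for Prdm1 and -0.0035 to 0.16 for Ms4a1. The cause was not tested. The percentiles of the gaps between pools had medians of 98.5 in WT and 63.5 in Usp2-KO with repeated quantile normalization, and of 98.7 and 69.1 with 1000 neighbouring rows.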
